A study of Mus musculus with 4 samples.

Results

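Epithelium from the jejunum and the ileum of 2 wild-type (WT) mice at postnatal day 6 was dissociated and its cells were profiled for their RNA, with 1 library from each region of each mouse (4 in all). Described here are 9 genes of the Notch pathway and of secretory cell fate. The genes are Notch1, Dll1, Dll4, Hes1, Atoh1, Neurog3, Spdef, Gfi1 and Sox4. They were listed by name, and all 9 were found among the 32227 genes of the feature lists. The libraries numbered 1 came from an animal labelled male (batch 1) and those numbered 2 from an animal labelled female (batch 2), so mouse, labelled sex and batch cannot be told apart. The 4 libraries held 36202 called cells, of which 30521 passed the limits on genes and mitochondrial share, 5722 to 8997 per library.

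Notch signalling decides in the crypts of the intestine which dividing cells become absorptive and which become secretory. A ligand such as Dll1 or Dll4 on 1 cell activates the Notch1 receptor on its neighbour, and the released receptor fragment switches on Hes1 with the DNA-binding partner Rbpj. Hes1 represses Atoh1, the factor needed for all secretory lineages, and cells that escape this repression can go on to express Neurog3 on the way to enteroendocrine cells, or Spdef and Gfi1 on the way to goblet and Paneth cells. Sox4 is a transcription factor of progenitors that also takes part in enteroendocrine and tuft cell formation.

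Levels are given in CPM, the UMIs (distinct captured RNA molecules) of a gene per 1000000 UMIs summed over all cells of a class in 1 library. Means are given ± SD over 4 libraries. Shares of cells are given after each cell was thinned at random to 2000 UMIs, because depth differed between libraries and classes. Ileal cells were deeper, with medians of 12048 and 10916 UMIs against 4690 and 5884 UMIs for jejunal cells, and had less mitochondrial RNA, with medians of 3.61% and 3.74% against 6.37% and 9.94%. No cell barcode was shared between libraries. Xist and Eif2s3y went against the sex labels of all 4 libraries (Xist at 467 to 537 CPM in replicate 1 and 0.712 to 0.984 CPM in replicate 2), and no value below rests on sex.

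Cells were put into classes by sums of marker genes that include none of the 9 genes. Cycling-marker cells (1330 in all, 299 to 358 per library) passed a limit on cell-cycle genes such as Mki67, and stem-marker cells (379, 66 to 117 per library) passed a limit on crypt-base genes such as Lgr5 but not the cycling limit. Enteroendocrine-marker cells numbered 204 (38 to 60 per library) and enterocyte-marker cells 26601 (4845 to 7834). Lgr5 and Chga were among the markers that set the classes, so their levels describe the classes and do not test the names. Lgr5 stood at 240 to 321 CPM in stem-marker and 181 to 273 CPM in cycling-marker cells against 1.35 to 1.84 CPM in enterocyte-marker cells, and Chga at 4230 to 6069 CPM in enteroendocrine-marker cells against 0.786 to 1.79 CPM in enterocyte-marker cells. The cycling and stem classes were ranges of a score rather than separate types. Of the cycling-marker cells 988 also passed the stem limit, and 184 of the 379 stem-marker cells had 10 to 20 cycling-marker UMIs per 10000, just under the cycling limit. The 20 enterocyte markers summed in cycling-marker, stem-marker and enteroendocrine-marker cells to 11.7% to 20.6% of their level in enterocyte-marker cells of the same library, and the source of this signal was not tested. Another 24 cells carried goblet markers (3 to 8 per library), 55 carried markers of immune, stromal or endothelial cells and 1928 fell into no class.

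Over the classes, 8 of the 9 genes fell into 3 patterns, and Gfi1, with 39 UMIs, was too sparse to place. Notch1, Hes1 and Sox4 were higher in cycling-marker and stem-marker cells than in enterocyte-marker cells. Dll1 went the other way and was higher in enterocyte-marker cells than in the 3 other main classes. Dll4 and Neurog3 were highest in enteroendocrine-marker cells among the 4 main classes, where Hes1 was lowest, and Atoh1 and Spdef reached their highest levels in the few goblet-marker cells.

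**Figure D1:**
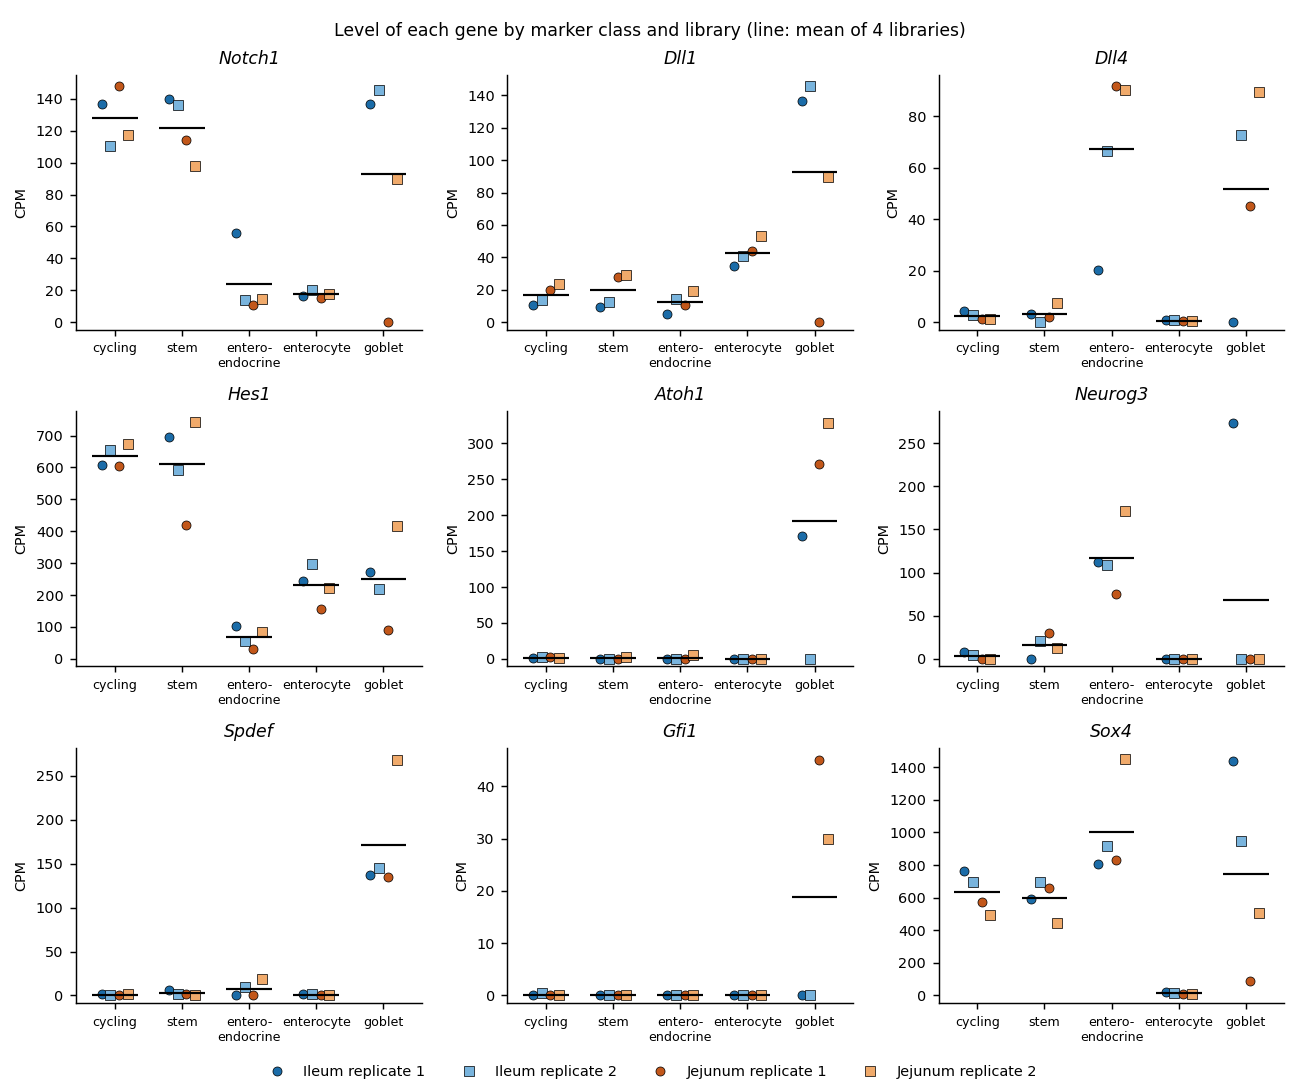
Level of each of the 9 genes (CPM, linear axis from 0, own scale in each panel) in cells of 5 marker classes. Each point is 1 library (blue, ileum; orange, jejunum; circles, replicate 1; squares, replicate 2) and the line is the mean of 4 libraries. Notch1, Hes1 and Sox4 stand high in cycling-marker and stem-marker cells, and Dll4 and Neurog3 in enteroendocrine-marker cells among the 4 main classes. Atoh1 and Spdef stand high in goblet-marker cells, a class of only 3 to 8 cells per library. Dll4 reached 89.6 CPM there, from 3 UMIs in Jejunum replicate 2.

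Notch1, the receptor, was a gene of the crypt classes. In cycling-marker cells it stood at 137 and 111 CPM in the ileum and 148 and 117 CPM in the jejunum, and in stem-marker cells at 140, 136, 114 and 97.8 CPM in the same order. Enterocyte-marker cells held 16.5, 20.4, 15.5 and 18.0 CPM. All crypt values lay above all enterocyte values. Over enterocyte-marker cells the log2 fold change was 2.32 ± 0.15 (SE) in cycling-marker cells (edgeR adjusted p = 6.7e-07) and 2.21 ± 0.19 in stem-marker cells (edgeR adjusted p = 2.8e-14), in the same direction in 4 of 4 libraries each. At 2000 UMIs per cell, 21.9 ± 2.50% of cycling-marker and 3.30 ± 0.64% of enterocyte-marker cells had a Notch1 UMI. Enteroendocrine-marker cells held only 19 Notch1 UMIs in all, at 55.9, 14.2, 10.8 and 14.3 CPM. They lay below stem-marker cells in every library, by a fitted log2 difference of -2.34 ± 0.34. Notch1 passed the filter on low counts there only through stem-marker cells, so no test is given.

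Dll1, a ligand, was the only one of the 9 genes that was lower in both crypt classes than in enterocyte-marker cells. Enterocyte-marker cells held 34.4 and 40.7 CPM in the ileum and 43.9 and 53.0 CPM in the jejunum, and 95.6% of all Dll1 UMIs beside 92.4% of all UMIs of kept cells. Cycling-marker cells held 10.9, 13.5, 20.0 and 23.7 CPM. The enterocyte value was the higher of the pair in each library. For cycling-marker over enterocyte-marker cells the log2 fold change was -1.90 ± 0.15 (edgeR adjusted p = 2.3e-06), that of stem-marker cells -1.70 ± 0.26 (edgeR adjusted p = 1.7e-07) and that of enteroendocrine-marker cells -2.42 ± 0.39 (edgeR adjusted p = 5.2e-06). The Dll1 signal of enterocyte-marker cells was spread over many cells. It came from 7649 cells, of which 5311 had 1 UMI and 688 had 3 or more, with a highest count of 10. The few goblet-marker cells held 137, 146, 0 and 89.6 CPM from 9 UMIs, too few for a test.

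Dll4, the other Delta-like ligand, was sparse in the main classes other than the enteroendocrine class. Enteroendocrine-marker cells held 20.3 and 66.5 CPM in the ileum and 91.7 and 90.5 CPM in the jejunum, from 4, 14, 17 and 19 UMIs, while enterocyte-marker cells held 0.320 to 0.770 CPM. Every enteroendocrine value lay above every value of the 3 other main classes, of which the highest was 7.34 CPM in stem-marker cells. The few goblet-marker cells held 0 and 72.7 CPM in the ileum and 45.1 and 89.6 CPM in the jejunum. These came from 5 UMIs in 4 cells, too few for a test. Cells with immune, stromal or endothelial markers held 13 Dll4 UMIs in 4 cells, all in Jejunum replicate 1 (92.5 CPM). The fitted log2 difference of enteroendocrine-marker over enterocyte-marker cells was 6.23 ± 0.59. Cycling-marker cells held 20 Dll4 UMIs in 20 cells, at 1.08 to 4.46 CPM. Their fitted log2 difference over enterocyte-marker cells was 1.47 ± 0.41, and 1.17 without Ileum replicate 1. In both comparisons Dll4 passed the filter on low counts only through the class where it was higher, so no test is given. Dll4 is also a gene of endothelial cells, and the 7 endothelial markers summed to 80.9 to 147 CPM in enteroendocrine-marker cells against 35.5 to 44.0 CPM in enterocyte-marker cells, all 7 with at least 1 UMI. Most of that sum was Pecam1, at 47.6 to 86.4 CPM. Of the 41 enteroendocrine-marker cells with Dll4, 10 had a Pecam1 UMI, 4 a Cdh5 UMI, 1 a Tie1 UMI, 1 an Egfl7 UMI and 0 a Kdr, Plvap or Emcn UMI. Among the 163 without Dll4, 28 had Pecam1, 13 Cdh5, 5 Plvap, 5 Egfl7, 3 Emcn, 2 Tie1 and 1 Kdr. The part of these markers in the Dll4 level was not tested.

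Hes1, the repressor switched on by Notch, was the most widely detected of the 9 genes, with a UMI in 20743 kept cells. Cycling-marker cells held 609 and 654 CPM in the ileum and 603 and 675 CPM in the jejunum. Enterocyte-marker cells held 245, 298, 155 and 222 CPM, and enteroendocrine-marker cells 102, 57.0, 32.4 and 85.7 CPM. The ranges of these 3 classes did not overlap. Stem-marker cells spread more widely, from 419 to 741 CPM, around a mean of 612 ± 143 CPM. The log2 fold change over enterocyte-marker cells was 0.96 ± 0.14 in cycling-marker cells (edgeR adjusted p = 1.9e-04), 0.84 ± 0.14 in stem-marker cells (edgeR adjusted p = 2.4e-06) and -2.35 ± 0.24 in enteroendocrine-marker cells (edgeR adjusted p = 1.4e-09). Between enteroendocrine-marker and stem-marker cells the fitted log2 difference was -3.12 ± 0.22. Hes1 passed the filter on low counts there only through stem-marker cells, so no test is given. At equal depth, Hes1 was seen in 65.3 ± 3.29% of cycling-marker, 34.4 ± 6.33% of enterocyte-marker and 9.40 ± 5.02% of enteroendocrine-marker cells.

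Atoh1, the master factor of secretory cells, was rare. The 4 libraries held 84 Atoh1 UMIs in 71 kept cells. The 24 goblet-marker cells carried 22 of these UMIs in 12 cells, at 171 and 0 CPM in the ileum and 271 and 328 CPM in the jejunum, while cycling-marker cells carried 16 UMIs at 0.992, 2.26, 3.04 and 1.08 CPM. Enterocyte-marker cells held 0.0982 to 0.218 CPM, and 39 of their 40 positive cells had 1 UMI. Every cycling value was above every enterocyte value, with a fitted log2 difference of 2.88 ± 0.49. Atoh1 passed the filter on low counts only through cycling-marker cells, so no test is given. Stem-marker and enteroendocrine-marker cells had 1 Atoh1 UMI each, and 3 of their 4 libraries were at 0 in either class. The goblet-marker class was too small for a test, and its libraries rest on 0 to 11 Atoh1 UMIs.

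Neurog3, the factor that commits cells to the enteroendocrine lineage, was concentrated in few cells. There were 212 UMIs in 48 cells, and 184 of the UMIs came from 25 cells with 3 or more each, 5 to 7 of these cells per library. Enteroendocrine-marker cells held 112 and 109 CPM in the ileum and 75.5 and 171 CPM in the jejunum, from 17 positive cells. Stem-marker cells held 0, 20.3, 30.0 and 12.2 CPM from 4 positive cells, and enterocyte-marker cells 0.0188 to 0.0446 CPM. The enteroendocrine values lay above those of the 3 other main classes in every library. Neurog3 passed the filter on low counts only through the enteroendocrine class, and enterocyte-marker cells held 9 UMIs in all, so no test is given. The fitted log2 differences were 11.01 ± 0.52 over enterocyte-marker and 2.80 ± 0.37 over stem-marker cells. Of the 25 cells with 3 or more Neurog3 UMIs, 11 were enteroendocrine-marker cells, 8 were cycling-marker or stem-marker cells, 5 were in no class, 1 was a goblet-marker cell and 0 were enterocyte-marker cells. Without thinning, Sox4 was seen in 24 of these 25 cells, beside 1049 of 1330 cycling-marker, 267 of 379 stem-marker and 156 of 204 enteroendocrine-marker cells. Of the same 25 cells, 7 had Hes1, 7 Dll4, 5 Dll1, 4 Notch1, 3 Atoh1, 2 Spdef and 0 Gfi1.

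Spdef, a factor of goblet and Paneth cells, reached 137 and 146 CPM in the ileum and 135 and 269 CPM in the jejunum in goblet-marker cells, from 18 UMIs in 12 cells. In the 4 main classes it lay between 0 and 19.0 CPM. Its log2 fold change of enteroendocrine-marker over enterocyte-marker cells was 2.32 ± 0.97 and missed the threshold (edgeR adjusted p = 0.053), and it rested on 6 UMIs in 2 libraries. Gfi1, a zinc-finger repressor of the secretory branch and of blood cells, had 39 UMIs in 36 cells. Of these UMIs 12 lay in the 55 cells with immune, stromal or endothelial markers, at 14.2 to 53.6 CPM, and the immune markers summed there to 1795 to 8353 CPM. No Gfi1 UMI was seen in 379 stem-marker cells, which allows up to 0.792% of cells with a Gfi1 UMI at this depth, or in 204 enteroendocrine-marker cells, which allows up to 1.47%. These limits do not bound the share of cells that express the gene. Cycling-marker cells had 1 Gfi1 UMI and goblet-marker cells had 2.

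Sox4 changed more between crypt and enterocyte-marker cells than any other of the 9 genes that could be tested in both crypt classes. Cycling-marker cells held 762 and 699 CPM in the ileum and 575 and 494 CPM in the jejunum, stem-marker cells 592, 697, 661 and 448 CPM, and enteroendocrine-marker cells 808, 916, 831 and 1447 CPM. Enterocyte-marker cells held 22.2, 15.4, 11.4 and 10.2 CPM. The lowest value of the first 3 classes was far above the highest enterocyte value. The log2 fold change over enterocyte-marker cells was 4.92 ± 0.14 in cycling-marker cells (edgeR adjusted p = 1.1e-08), 4.82 ± 0.17 in stem-marker cells (edgeR adjusted p = 8.9e-28) and 5.50 ± 0.25 in enteroendocrine-marker cells (edgeR adjusted p = 1.5e-17). Enteroendocrine-marker cells exceeded stem-marker cells by 0.76 ± 0.18 (edgeR adjusted p = 6.0e-04), but without Jejunum replicate 2 that difference was 0.44 and did not pass (edgeR adjusted p = 0.072). Enterocyte-marker cells held 32.6% of the Sox4 UMIs and 92.4% of all UMIs of kept cells, and cycling-marker cells 42.3% and 3.09%.

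**Figure D2:**
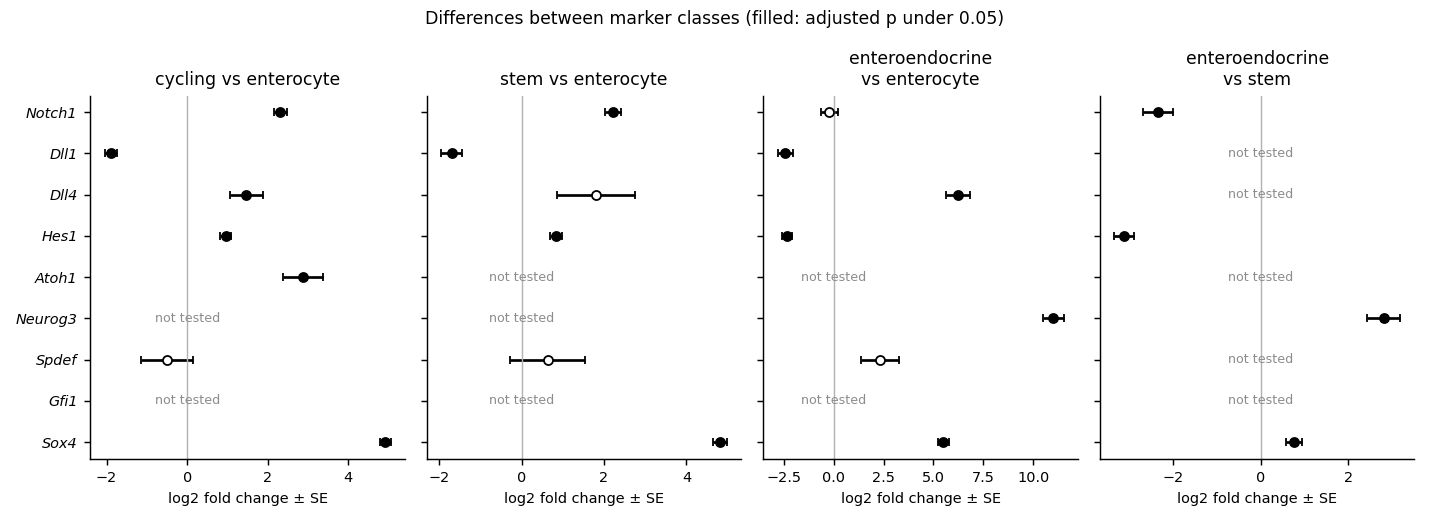
Log2 fold change between marker classes (points, with SE bars) for the 9 genes, from edgeR fits over 8 class and library sums. Filled points passed an adjusted p of 0.05, and genes too sparse for the fit are marked as not tested. Atoh1 and Neurog3 passed the filter on low counts only through the class where they were higher. So did Dll4 in cycling-marker and enteroendocrine-marker over enterocyte-marker cells, and Hes1 and Notch1 between enteroendocrine-marker and stem-marker cells. These values are a description. Dll1 lies left of 0 in all 3 comparisons with enterocyte-marker cells, Hes1 changes side between the crypt and enteroendocrine classes, and Neurog3 and Dll4 have the highest positive values in enteroendocrine-marker cells.

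Counted over the list, 6 of the 7 genes tested differed between cycling-marker and enterocyte-marker cells, where 62.5% of the 16862 genes tested differed. Between stem-marker and enterocyte-marker cells 4 of 6 differed (50.5% of all genes tested), between enteroendocrine-marker and enterocyte-marker cells 5 of 7 (42.4%), and between enteroendocrine-marker and stem-marker cells 4 of 4 (44.3%). These classes thus differed in a large share of all genes. Some of these genes passed the filter on low counts only through the class where they were higher, so nothing is read from these counts. They were 2 of the 6 between cycling-marker and enterocyte-marker cells (Atoh1 and Dll4), 2 of the 5 between enteroendocrine-marker and enterocyte-marker cells (Dll4 and Neurog3) and 3 of the 4 between enteroendocrine-marker and stem-marker cells (Hes1, Notch1 and Neurog3). Between cycling-marker and stem-marker cells 0 of 4 differed (22.9% of all genes tested), with 0 at an unadjusted p under 0.05 and 0 by DESeq2. The log2 differences of Dll1, Hes1, Notch1 and Sox4 there ran from -0.21 ± 0.29 to 0.09 ± 0.09. Fold changes between classes are relative to TMM scaling. On library totals alone the median of all genes lay 0.55, 0.48 and 0.44 log2 units above 0 in cycling-marker, stem-marker and enteroendocrine-marker over enterocyte-marker cells. The sign of each call above was the same on that scale, whereas Notch1 between enteroendocrine-marker and enterocyte-marker cells, which passed on neither scale, went from -0.22 to 0.38 and Spdef between cycling-marker and enterocyte-marker cells from -0.50 to 0.05.

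The other genes of the pathway moved in both directions between crypt and enterocyte-marker cells. Of 43 further Notch pathway genes, 35 could be tested between cycling-marker and enterocyte-marker cells, and 12 were higher and 14 lower in cycling-marker cells (29.2% and 33.3% of all genes), with a median log2 fold change of -0.15 against 0.00 for all genes. Olfm4, a Notch-induced gene of crypt-base cells, stood at 1728 CPM in cycling-marker and 9.45 CPM in enterocyte-marker cells (log2 fold change 7.27 ± 0.31, edgeR adjusted p = 4.5e-08). Lfng, a glycosyltransferase that modifies Notch receptors, stood at 55.7 against 0.574 CPM (6.0 ± 0.24). The genes with the lowest fold changes included parts of gamma-secretase, the protease that releases the Notch fragment. Aph1c stood at 5.11 against 99.4 CPM (-4.61 ± 0.28), Aph1b at 3.41 against 38.8 CPM (-4.11 ± 0.23) and Ncstn at 71.2 against 165 CPM (-1.72 ± 0.17). Stem-marker cells gave 9 genes higher and 12 lower of 33 tested (20.2% and 30.2% of all genes), led by the same Olfm4 and Lfng at the top and Aph1c and Aph1b at the bottom.

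Among 32 further fate factors, 20 could be tested between cycling-marker and enterocyte-marker cells, with 8 higher and 5 lower (29.2% and 33.3% of all genes). Ascl2, a factor of intestinal stem cells, stood at 65.9 against 0.143 CPM (log2 fold change 8.35 ± 0.26), Mnx1 at 16.9 against 0.231 CPM (5.64 ± 0.36) and Foxa3 at 64.1 against 1.48 CPM (4.90 ± 0.22). Ascl2 and Mnx1 averaged below the filter's limit of 0.454 CPM in enterocyte-marker cells and passed only through cycling-marker cells, so their values are a description. Cbfa2t3, a corepressor, was lower in cycling-marker cells at 6.02 against 58.2 CPM (-3.87 ± 0.18). In enteroendocrine-marker over enterocyte-marker cells, 23 of the 28 factors tested were higher and 2 lower (16.8% and 25.6% of all genes). Neurod1, a direct successor of Neurog3 in this lineage, stood at 1030 against 0.244 CPM (11.46 ± 0.29), Fev at 180 against 0.0378 CPM (11.35 ± 0.40), Insm1 at 282 against 0.0772 CPM (11.31 ± 0.34), Pax4 at 78.6 against 0.0333 CPM (10.34 ± 0.63) and Neurod2 at 45.3 against 0.0322 CPM (9.62 ± 0.67). Many of these factors are known for enteroendocrine cells, so the list was weighted toward that class. In enterocyte-marker cells Neurod1, Fev, Insm1, Pax4 and Neurod2 averaged below the 0.482 CPM that the filter on low counts asked for. They passed it only through the enteroendocrine class, so their values are a description and nothing is read from the count. Of the Notch pathway genes, 7 were higher and 9 lower of 36 tested in the same comparison, beside the same shares of all genes. Lfng (14.9 against 0.574 CPM, 4.07 ± 0.72) was among the higher ones. So were Maml3 (706 against 44.6 CPM, 3.53 ± 0.23) and Olfm4 (127 against 9.45 CPM, 3.39 ± 0.36). Dlk1 (40.3 against 0.0638 CPM, 8.65 ± 0.82) and Mfng (14.6 against 0.332 CPM, 4.91 ± 0.79) had higher values, but averaged below the filter's limit in enterocyte-marker cells. Among the lowest were Pofut1, which attaches fucose to Notch receptors (29.4 against 96.8 CPM, -2.35 ± 0.30), and Aph1a (69.4 against 119 CPM, -1.37 ± 0.23).

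Enteroendocrine-marker and stem-marker cells differed in 19 of 22 fate factors tested, 17 higher and 2 lower in enteroendocrine-marker cells (23.1% and 21.3% of all genes). Isl1 (162 against 0.468 CPM, log2 fold change 7.52 ± 0.50) and Pax6 (159 against 0.468 CPM, 7.45 ± 0.50) were among the highest, and Sox9, a factor of crypt progenitors, was lower (164 against 414 CPM, -1.32 ± 0.20). In stem-marker cells Isl1 and Pax6 averaged below the 37.5 CPM that the filter on low counts asked for here. They passed it only through the enteroendocrine class, so their values are a description and nothing is read from the count of higher factors. Of 16 Notch pathway genes tested, 1 was higher and 3 were lower, namely Olfm4 (127 against 1636 CPM, -3.63 ± 0.21), Pofut1 (-1.65 ± 0.32) and Numb, an inhibitor of Notch (120 against 203 CPM, -0.70 ± 0.21). Between cycling-marker and stem-marker cells, the Notch target Nrarp was higher in cycling-marker cells (83.5 against 46.0 CPM, 0.86 ± 0.17, edgeR adjusted p = 2.7e-04), as was Hes6 (76.6 against 53.5 CPM, 0.55 ± 0.17), and Numb (-0.89 ± 0.12) and the coactivator Maml3 (-0.79 ± 0.11) were lower. Here 5 of 28 Notch pathway genes and 3 of 14 fate factors differed, where 22.9% of all genes tested did.

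Genes with a similar course over the 16 class and library sums were ranked by Pearson's r of log2(CPM + 5) among 11201 genes. These r describe sums that share libraries and classes, so they carry no p. The closest to Neurog3 was Nkx2-2 (r = 0.98), an enteroendocrine factor of the list above, followed by Spock2 and Cacna1a (0.97 each). Sox4 was closest to Slc7a1, Marcks and Hunk (0.99 each), Dll4 to Klhl32, Wif1 and Ikzf4 (0.98 each), and Hes1 to Cluh, Nectin3 and Naca (0.96 to 0.97). Notch1 was closest to the ribosomal protein genes Rps15 and Rpl38 and to Rmi2 (0.98 to 0.99). Dll1 was closest to Acot4, Sec13 and Cpt1a (0.94 each), of which Acot4 and Cpt1a act in fatty acid metabolism. Spdef (Esr1, Nrbp2 and Vamp4, 0.84 to 0.88) and Atoh1 (Rbm8a2, Fbxo46 and Utp18, 0.79 to 0.84) had looser partners.

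Promoters of 8 of the 9 genes were found by symbol in the RefSeq table of build GRCm38.p6, with 250 bases before and 50 after the start site. There was no entry for Hes1. Neurog3, Dll4 and Sox4 had the highest fitted log2 differences of enteroendocrine-marker over enterocyte-marker cells. Their promoters are shown, 5′ to 3′ on the strand of the gene. Capitals mark matches on either strand to TGGGAA (the core of the Rbpj site), CAGCTG (an E-box of the kind bound by Atoh1 and related factors) and CACNAG (the N-box bound by Hes1).
Neurog3, chr10:62132840-62133139, plus strand: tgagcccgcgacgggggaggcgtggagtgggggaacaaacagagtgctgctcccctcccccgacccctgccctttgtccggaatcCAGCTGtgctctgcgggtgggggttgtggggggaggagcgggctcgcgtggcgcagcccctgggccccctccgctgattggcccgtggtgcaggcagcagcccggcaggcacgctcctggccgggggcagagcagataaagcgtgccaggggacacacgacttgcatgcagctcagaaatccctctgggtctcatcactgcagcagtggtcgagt
Dll4, chr2:119325534-119325833, plus strand: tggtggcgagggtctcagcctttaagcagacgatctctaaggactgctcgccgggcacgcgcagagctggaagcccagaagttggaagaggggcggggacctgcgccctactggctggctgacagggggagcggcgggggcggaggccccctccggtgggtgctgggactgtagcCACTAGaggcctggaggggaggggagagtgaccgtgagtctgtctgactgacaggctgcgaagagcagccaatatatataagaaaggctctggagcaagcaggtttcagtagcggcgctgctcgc
Sox4, chr13:28953650-28953949, minus strand: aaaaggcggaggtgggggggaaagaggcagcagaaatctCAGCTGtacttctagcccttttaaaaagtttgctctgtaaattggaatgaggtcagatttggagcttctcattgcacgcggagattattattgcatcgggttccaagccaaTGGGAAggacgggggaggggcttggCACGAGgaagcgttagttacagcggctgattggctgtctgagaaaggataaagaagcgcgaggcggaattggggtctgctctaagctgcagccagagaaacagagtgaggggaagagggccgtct
The E-box letters were found in Neurog3 and Sox4, the N-box letters in Dll4 and Sox4, and the Rbpj core in Sox4. Among all 32851 promoters of the table, 16.3% held the E-box letters, 42.5% the N-box letters and 25.6% the Rbpj core, so such matches are common and are given as a description only. The data hold no measurement of binding.

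In cycling-marker and stem-marker cells thinned to 2000 UMIs, 7 of 1600 cells had a Neurog3 UMI. Sox4 was seen in 7 of these 7 cells and in 62.0% of the 1593 others, Dll1 in 3 of 7 against 3.77%, and Dll4 in 2 of 7 against 0.691%. Hes1 was seen in 1 of 7 against 64.5%, and Notch1 in 0 of 7 against 22.2%. The 7 cells were pooled from 4 libraries, with 1 to 3 cells each, and are no replicates, so these shares are a description with no test. In the 8 cells with an Atoh1 UMI, Hes1 was seen in 4 of 8 against 64.4%, Notch1 in 4 of 8 against 21.9% and Neurog3 in 0 of 8.

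**Figure D3:**
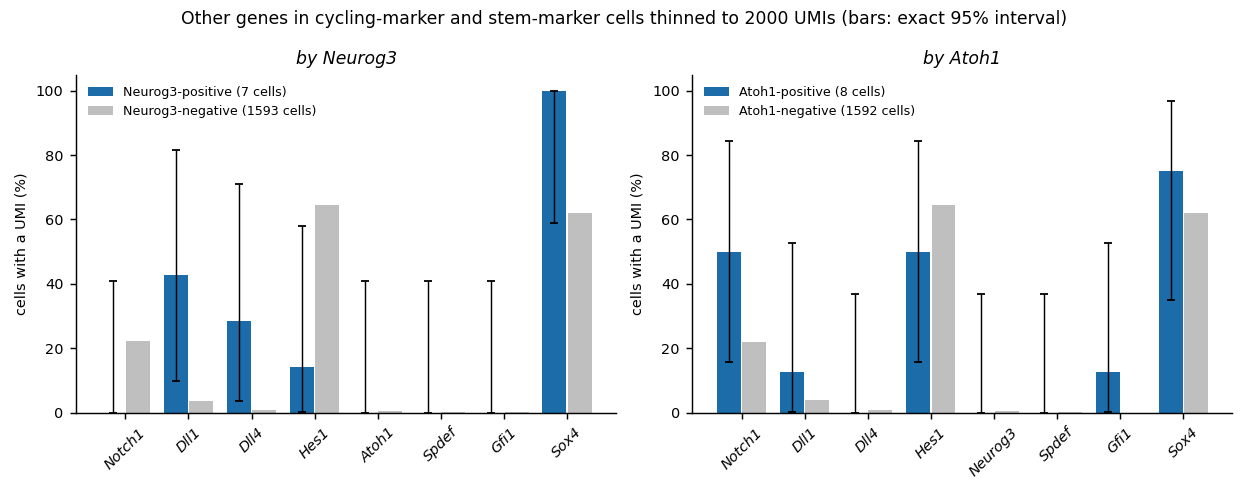
Share of cycling-marker and stem-marker cells with a UMI of each other gene (percent, cells thinned to 2000 UMIs, 4 libraries pooled), in cells with and without a Neurog3 UMI (left) or an Atoh1 UMI (right). Lines are exact 95% binomial intervals of the positive cells and cover counting error only. In the 7 Neurog3-positive cells Hes1 is seen in 14.3% and Sox4 in 100%, against 64.5% and 62.0% in the 1593 Neurog3-negative cells.

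In enteroendocrine-marker cells at the same depth, Dll4 was seen in 22 cells and Hes1 in 18, and no cell had both. Hes1 was thus at 0 of 22 Dll4-positive cells against 10.5% of the 172 others, and counting error alone allows 0 of 22 up to 15.4%. Neurog3 was seen in 14 cells, of which 2 had Dll4 (14.3% against 11.1%) and 1 had Hes1 (7.14% against 9.44%). No association among these genes could be read within the enteroendocrine class at this depth.

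Within the enterocyte-marker class, cells were split in each library into 5 equal groups by their share of ribosomal protein UMIs, which was lowest at a median of 1.55% to 2.10% in group 1 and highest at 4.97% to 7.17% in group 5. Sox4 was higher in group 5 than in group 1 in 4 of 4 libraries (means of 19.4 and 12.6 CPM), and Hes1 was lower in 4 of 4 (200 and 247 CPM), with a top of 270 CPM in group 2. Notch1 was higher in 2 of 4 libraries (20.7 and 17.2 CPM) and Dll1 in 1 of 4 (43.7 and 45.4 CPM). Spdef, at 0.683 CPM in group 5 and 1.58 CPM in group 1, and Atoh1, at 0.146 and 0.310 CPM, were lower in group 5 in 4 of 4 libraries, from 40 and 65 Spdef UMIs and 10 and 11 Atoh1 UMIs. The groups were formed from the same counts, so these differences are descriptions without a test.

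**Figure D4:**
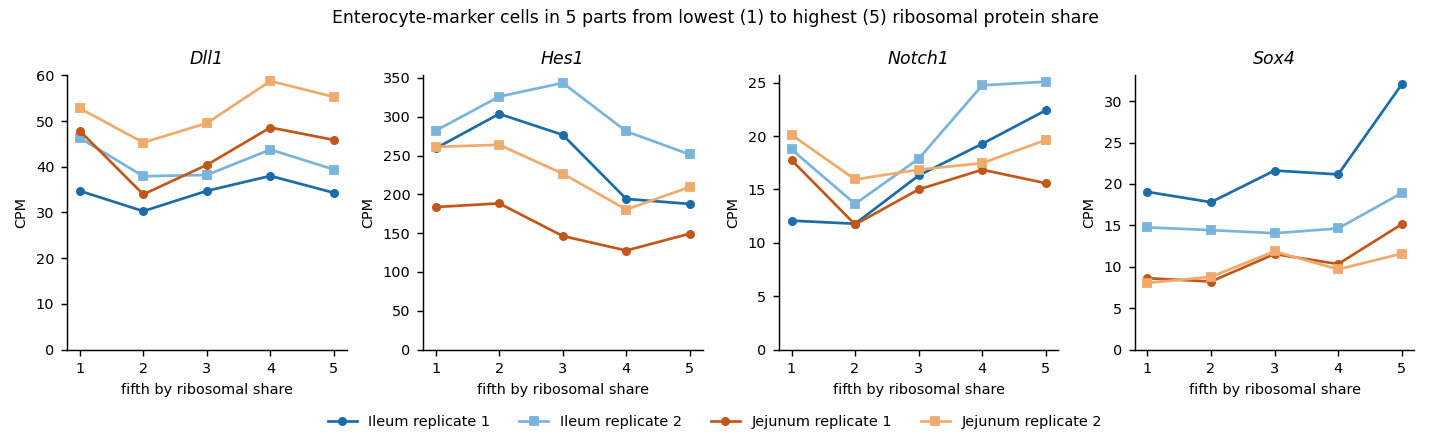
Level of Dll1, Hes1, Notch1 and Sox4 (CPM, axis from 0) in enterocyte-marker cells split in each library into 5 equal groups from the lowest (1) to the highest (5) share of ribosomal protein UMIs. Each line is 1 library. Hes1 is lower and Sox4 higher in group 5 than in group 1 in 4 of 4 libraries, and Dll1 changes little, from a mean of 45.4 CPM in group 1 to 43.7 CPM in group 5.

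Ileum and jejunum were compared within each class. With region as the only term, 0 of 4 genes tested differed in cycling-marker cells (1.47% of all genes tested), 0 of 4 in stem-marker cells (0.979%), 0 of 4 in enteroendocrine-marker cells (0.365%) and 0 of 7 in enterocyte-marker cells (7.35%). At an unadjusted p under 0.05 by edgeR there were 2, 1, 0 and 3. DESeq2 called 1, Sox4 in enterocyte-marker cells, and 0 in the other classes. With 2 mice per region, p-values rest on the spread between 2 libraries of a region, which edgeR moderates over all genes.

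Dll1 was lower in the ileum in 3 classes. In cycling-marker cells it stood at 10.9 and 13.5 CPM in the ileum and 20.0 and 23.7 CPM in the jejunum, and in stem-marker cells at 9.31 and 12.2 CPM against 28.1 and 29.3 CPM. In enterocyte-marker cells the values were 34.4 and 40.7 CPM against 43.9 and 53.0 CPM. The regions did not overlap in CPM in any of these classes, and the ileum was lower in both mice. The share of all genes without overlap in CPM was not counted. At equal depth, the share of enterocyte-marker cells with a Dll1 UMI overlapped (5.54% and 7.48% in the ileum, 6.82% and 8.49% in the jejunum). In cycling-marker and stem-marker cells these shares did not overlap. The log2 fold change of ileum over jejunum was -0.89 ± 0.28 in cycling-marker cells (edgeR adjusted p = 0.19), -1.36 ± 0.54 in stem-marker cells (edgeR adjusted p = 0.42) and -0.48 ± 0.19 in enterocyte-marker cells (edgeR adjusted p = 0.17). Both regions came from the same mice, and with the mouse as a block Dll1 passed in cycling-marker cells (-0.88 ± 0.29, edgeR adjusted p = 0.039) and in enterocyte-marker cells (-0.48 ± 0.11, edgeR adjusted p = 0.044) but not in stem-marker cells (-1.38 ± 0.52, edgeR adjusted p = 0.33). In enteroendocrine-marker cells it rested on 1 to 4 UMIs per library.

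Sox4 went the opposite way. It stood at 762 and 699 CPM in the ileum and 575 and 494 CPM in the jejunum in cycling-marker cells, and at 22.2 and 15.4 CPM against 11.4 and 10.2 CPM in enterocyte-marker cells. The regions did not overlap in these classes, but they did in stem-marker and enteroendocrine-marker cells. As for Dll1, the share of all genes without overlap in CPM was not counted. The log2 fold change was 0.41 ± 0.14 in cycling-marker cells (edgeR adjusted p = 0.23) and 0.68 ± 0.19 in enterocyte-marker cells (edgeR adjusted p = 0.094), and with the mouse as a block it was 0.41 ± 0.10 (edgeR adjusted p = 0.0019) and 0.67 ± 0.15 (edgeR adjusted p = 0.041). The blocked fits called Dll1 and Sox4 in both classes, 2 of 4 genes tested in cycling-marker and 2 of 7 in enterocyte-marker cells, where they called 7.86% of all genes tested in cycling-marker and 15.9% in enterocyte-marker cells. In stem-marker and enteroendocrine-marker cells they called 0 of 4 each (1.11% and 3.77% of all genes). The blocked fits estimate both a mouse and a region term from 4 libraries, which leaves little from which to estimate the spread. Depth and mitochondrial share also differed between the regions, as given above, and their part in these differences was not tested.

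**Figure D5:**
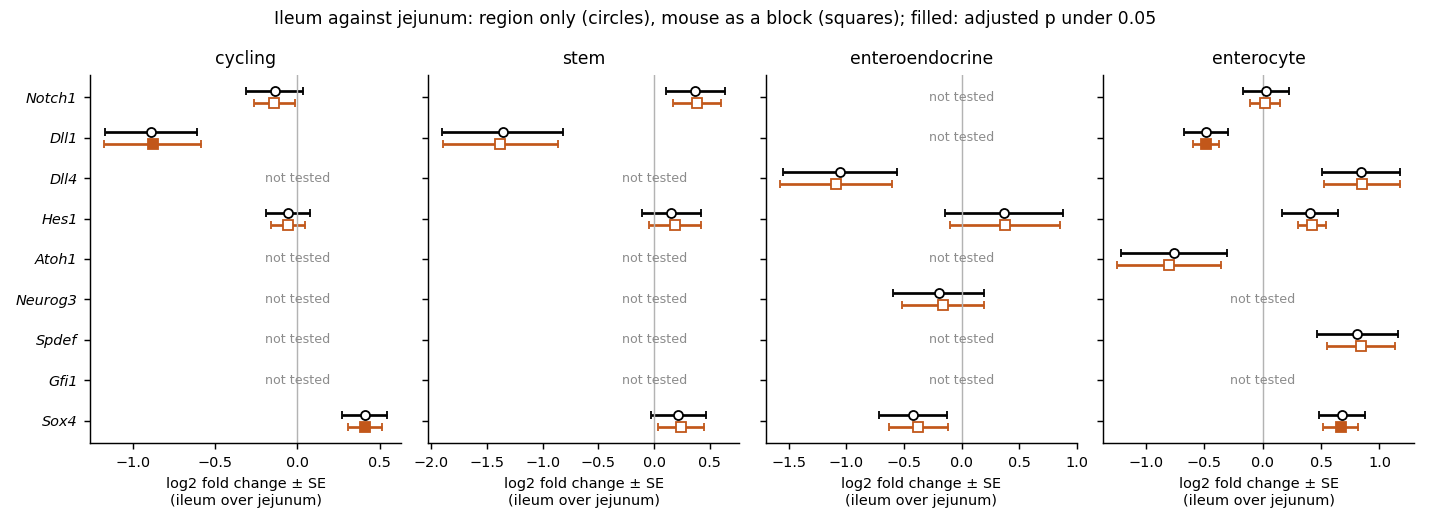
Log2 fold change of ileum over jejunum (points, with SE bars) for the 9 genes in 4 marker classes, with region as the only term (black circles) and with the mouse as a block (orange squares). Filled points passed an adjusted p of 0.05, and genes too sparse for the fit are marked as not tested. Only Dll1 and Sox4, with the mouse as a block, passed in cycling-marker and enterocyte-marker cells, Dll1 lower and Sox4 higher in the ileum.

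The other genes gave smaller or less certain differences. In enterocyte-marker cells Hes1 stood at 245 and 298 CPM in the ileum and 155 and 222 CPM in the jejunum (log2 fold change 0.41 ± 0.24, edgeR adjusted p = 0.32), Dll4 at 0.737 and 0.770 against 0.320 and 0.460 CPM (0.84 ± 0.33, edgeR adjusted p = 0.17) and Spdef at 1.55 and 1.13 against 0.883 and 0.509 CPM (0.81 ± 0.35, edgeR adjusted p = 0.19). Notch1 differed by 0.03 ± 0.20. In enteroendocrine-marker cells Dll4 stood at 20.3 and 66.5 CPM against 91.7 and 90.5 CPM (-1.06 ± 0.49, edgeR adjusted p = 0.53), a value that was -0.44 without Ileum replicate 1 and -2.13 without Ileum replicate 2. Neurog3 stood there at 112 and 109 against 75.5 and 171 CPM (-0.20 ± 0.40), with -0.62 without Jejunum replicate 1 and 0.52 without Jejunum replicate 2. In cycling-marker cells Neurog3 had 16 and 7 UMIs in the ileum and 0 in either jejunal library, which allows up to 1.30 and 1.08 CPM there. The ileal UMIs lay in 5 and 3 cells, with up to 8 and 5 in a single cell. Stem-marker cells held 0 and 20.3 CPM in the ileum against 30.0 and 12.2 CPM in the jejunum. In cycling-marker cells Neurog3 was too sparse for the test. Without the filter on low counts it was among 534 of 23483 genes called, and nothing is read from that call.

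Regional changes were also compared between classes. Hes1 differed between the regions by -0.06 ± 0.13 in cycling-marker and by 0.41 ± 0.24 in enterocyte-marker cells, and the interaction of region and class was -0.54 ± 0.16 (edgeR adjusted p = 0.0499), the only call among 8 genes tested (7.17% of all genes). With the mouse as a block it was -0.53 and did not pass (edgeR adjusted p = 0.14). The call was lost under 7 of 15 alternatives in all, among them without Ileum replicate 1 (-0.63), Ileum replicate 2 (-0.49) or Jejunum replicate 1 (-0.31). For stem-marker against enterocyte-marker cells 0 of 7 passed (2.14% of all genes), with 1 at an unadjusted p under 0.05 and 0 by DESeq2. The values of Dll1 were -0.45 ± 0.27 and -0.96 ± 0.56 in these comparisons, so a difference in its regional change between crypt and enterocyte-marker cells was not shown.

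Of the other Notch pathway genes, Olfm4 was lower in the ileum in cycling-marker (1185 against 2272 CPM, -0.98 ± 0.12, edgeR adjusted p = 0.0015), stem-marker (1132 against 2140 CPM, -0.92 ± 0.19, edgeR adjusted p = 0.029) and enterocyte-marker cells (3.4 against 15.5 CPM, -2.32 ± 0.24, edgeR adjusted p = 0.018). It was the only one of 30 and of 22 Notch pathway genes tested that differed in the crypt classes, where 1.47% and 0.979% of all genes tested did. In enterocyte-marker cells 3 of 38 differed, where 7.35% of all genes tested did, the others being Aph1c (149 against 49.5 CPM, 1.48 ± 0.19) and Dtx3 (7.61 against 2.80 CPM, 1.32 ± 0.23), both higher in the ileum. Among 24 fate factors tested there 2 differed. Foxa1 (38 against 16.6 CPM, 1.07 ± 0.14) and Cbfa2t3 (83.5 against 32.9 CPM, 1.22 ± 0.18) were higher in the ileum. No fate factor passed between regions in the other classes.

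Over all kept cells at equal depth, the share of cells with a UMI separated the regions without overlap for 3 of the 9 genes, beside 58.8% of 17988 genes. Atoh1 was seen in 0.0552% and 0.0612% of ileal and 0.121% and 0.146% of jejunal cells, Spdef in 0.386% and 0.257% against 0.231% and 0.183%, and Sox4 in 10.1% and 7.52% against 6.53% and 7.19%. Hes1 was seen in 37.2% and 41.4% against 27.5% and 39.0%, Dll1 in 5.24% and 7.08% against 6.67% and 8.03%, and Notch1 in 4.33% and 5.24% against 4.03% and 4.64%. Neurog3 (0.0729% to 0.165%), Dll4 (0.183% to 0.355%) and Gfi1 (0.0243% to 0.0552%) overlapped as well. The exact two-sided permutation test of 2 against 2 libraries cannot give a p below 0.333, so none of these differences could pass. Without thinning 8 of the 9 genes did not overlap (71.1% of all genes), at 4000 UMIs 5 did not (55.8%), and with a library left out 5 to 7 did not (78.5%, 80.7%, 81.7% and 76.6% of all genes).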

How the data were processed

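The authors released epithelium with EDTA and dispase, made 3′ libraries with the PIPseq V T20 kit and counted them with PIPseeker at sensitivity 3. The deposited matrices hold whole UMI counts per gene and called cell, and GRCm39 is named in the submitters' processing notes. The annotation version is not given in the sources used here. Stranded counting was not stated, so reads of genes that overlap Dll1, Dll4, Notch1, Neurog3, Gfi1 or Sox4 cannot be told apart from theirs.

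The study's limits were applied, leaving 30521 cells with more than 1000 but fewer than 6000 genes and less than 20% mitochondrial UMIs. Scrublet (scanpy 1.11.5) marked 1 or 2 cells per library and did not work, so doublets were not removed and leaving out the 6% with the highest scores was tried. Cells were classed by marker UMIs per 10000 and by distinct markers: cycling (20 and 4), stem (10 and 3, below the cycling limit), enteroendocrine (30 and 5) and goblet (50 and 5), all with enterocyte markers under 0.5 of the library median, and enterocyte (8 markers, at least 0.5 of that median, and under 10 of the cycling, stem and enteroendocrine sums). Cells with 3 immune, 3 stromal or 4 endothelial markers were set apart first. These limits were set after marker sums had been seen. The 9 genes, the lists and the tests were chosen with earlier results of these data known.

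UMI counts were summed per class and library. edgeR 4.0.16 (filterByExpr, TMM, quasi-likelihood test, Benjamini-Hochberg adjustment over all genes tested, threshold 0.05) compared ileum with jejunum by region alone, and classes with the library as a block. Same-numbered libraries came from the same mouse, and their replicate differences correlated across genes with r = 0.17 to 0.41 in the 4 classes. Alternatives included DESeq2 1.42.0, no filter, the mouse as a block, equal depth, a stricter mitochondrial limit, stricter markers, clusters in place of marker limits and each library left out. After the data had been seen, library totals in place of TMM, crypt cells without those under 5% ribosomal share, and the mouse block in the interactions were added. On simulated counts the fit recovered 198 of 200 changed genes between regions in cycling-marker cells, with 5 false calls among 11788 genes, and 200 of 200 between cycling-marker and enterocyte-marker cells, with 11 among 17624. Intervals are exact (Clopper-Pearson) at 95% and cover counting error only. Named pathway genes are the called genes with up to 5 highest and 5 lowest fold changes per class comparison (the higher class averaging 5 CPM or more, same direction in all 4 libraries) and every called gene between regions. Dlk1, Mfng, Lfng, Maml3 and Olfm4 in enteroendocrine-marker over enterocyte-marker cells were named outside this rule. Genes of similar course had at least 5 CPM and no marker, member or gene-model name. Of the named pathway genes, 1 is not reported here.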

Additional observations from a re-analysis of the deposited data

Results flagged for a closer look

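The regional change of Hes1 differed between cycling-marker and enterocyte-marker cells by the interaction test (log2 difference -0.54 ± 0.16, edgeR adjusted p = 0.0499, 8 class and library sums). Hes1 stood at 609 and 654 CPM in ileal and 603 and 675 CPM in jejunal cycling-marker cells, and at 245 and 298 against 155 and 222 CPM in enterocyte-marker cells. The adjusted p ran from 0.0047 to 0.49 over the 15 alternatives, and 8 of these kept the call. With the mouse as a block the difference was -0.53 and did not pass (edgeR adjusted p = 0.14).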

How the results depend on the processing

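Of 878 recomputed values of single genes, 857 kept their direction and side of the threshold or were uncalled in both fits, 9 lost and 12 gained a call, and 0 reversed. Of 166 recomputed counts of called genes, 144 stayed within 1.5 times. Members called between regions in cycling-marker cells went from 0 to 1 without the filter on low counts (Neurog3) and to 2 with the replicate block (Dll1 and Sox4), and from 0 to 1 when a library was left out (Neurog3, without Ileum replicate 2 or Jejunum replicate 1). In enterocyte-marker cells they went to 1 with DESeq2 (Sox4) and to 2 with the replicate block. Between cycling-marker and stem-marker cells the count went from 0 to 1 without the filter and in the range 0 to 1 with a library left out (Neurog3, without Ileum replicate 1 or 2). The Hes1 interaction was lost (count 0) with DESeq2 size factors, the DESeq2 test, classes from clusters, and the replicate block and region in place of the library, and its count ran from 0 to 1 with a library left out. The count of genes whose detection did not overlap between regions was 3 at 2000 UMIs, 8 unthinned, 5 at 4000 UMIs and 5 to 7 with a library left out. Spdef between enteroendocrine-marker and enterocyte-marker cells gained a call in 6 of 14 settings. The cause was not tested. Clusters gave no stem class in every library, so that alternative has no value for stem-marker cells. The replicate block changed no call between classes. Genes with few UMIs (Atoh1, Gfi1, Spdef, Neurog3) limit what these sums can show. Counts over all genes that moved by more than 1.5 times were these. Between regions in cycling-marker cells 173 genes became 925 with the replicate block, 534 without the filter, 268 with clusters and 518 without Jejunum replicate 1. In stem-marker cells 75 became 44 with DESeq2, 176 without the filter, 9 at equal sums and 116 to 171 with a library left out. In enteroendocrine-marker cells 18 became 186 with the block, 137 without the filter, 143 with clusters and 69 to 121 with a library left out. In enterocyte-marker cells 1441 became 3116 with the block, 3095 with DESeq2, and 251, 686 and 778 without Ileum replicate 1, Ileum replicate 2 and Jejunum replicate 2. The 2339 genes between cycling-marker and stem-marker cells became 1102 with DESeq2 and 969 without low-ribosomal cells, and the 2614 between enteroendocrine-marker and stem-marker cells became 1639 with DESeq2. The 1385 interactions of cycling-marker cells became 587 with the block, 699 without Ileum replicate 1 and 868 without Jejunum replicate 2, and the 376 of stem-marker cells became 158 with DESeq2, 250 with stricter markers, 181 with the block and 151 to 241 with a library left out.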
